A study of Mus musculus with 2 samples.

Results

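The nuclear-encoded subunits of the respiratory chain were followed in leukocytes sorted from subcutaneous mouse tumours. The set was taken by name: gene symbols starting with Nduf, Uqcr, Sdh, Cox4, Cox5, Cox6, Cox7, Cox8 or Atp5, without Cox6a2 and without the Ndufaf and Sdhaf assembly factors, and with at least 20 unique molecular identifiers (UMIs, each standing for 1 captured RNA molecule) over both libraries. Of 96 symbols with these prefixes, 12 were left out by name and 3 (Cox7b2, Cox8b and Cox8c) had 0 UMIs, so 81 of the 27998 genes in the tables remained: 36 of complex I, 4 of complex II, 8 of complex III, 16 of complex IV and 17 of complex V. Atp5s and Atp5sl carry the Atp5 prefix but are not structural subunits of complex V, and Ndufa4 and Ndufa4l2 were counted with complex IV, with which the Ndufa4 protein associates.

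The groups were CD94-KO mice, which lack CD94, the product of Klrd1, and wild-type (WT) mice. Both were C57BL/6J and 6 to 8 weeks old. From each group 1 droplet 3′ RNA library was made from live CD45+ cells of subcutaneous tumours, CD45 being a surface protein of leukocytes, with 5 tumour-bearing mice behind each library. The sources used here do not name the tumour line or the exons removed in the CD94-KO mice, and the study's title concerns how loss or blockade of CD94 bears on anti-tumour immunity. The mice of a library cannot be told apart, so a difference between CD94-KO and WT is a difference between these 2 libraries and carries no test.

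The chain sits in the inner mitochondrial membrane. Complexes I and II take electrons from NADH and from succinate, complex III passes them to cytochrome c, complex IV passes them to oxygen, and complex V uses the proton gradient that complexes I, III and IV build to make ATP. Most subunits are encoded in the nucleus, whereas a few core subunits of complexes I, III, IV and V are encoded in mitochondrial DNA, so that both genomes contribute to the same complexes. In leukocytes the balance between respiration and glycolysis is known to vary with activation, and respiration is known to be prominent in memory and regulatory T cells and in alternatively activated macrophages.

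Depth came to 46107433 UMIs over 5175 CD94-KO barcodes and 40261366 UMIs over 5358 WT barcodes. After filtering, 4574 CD94-KO and 4388 WT barcodes were kept, with a median of 7799 and 4768.5 UMIs, and 8 barcodes occurred in both libraries before filtering. Cell types were gated by raw UMIs of marker genes: 2551 CD94-KO and 1548 WT barcodes passed exactly 1 gate, with medians of 8827 and 8835.5 UMIs. The 1995 CD94-KO and 2828 WT barcodes in no gate were shallower, with medians of 5432 and 1198 UMIs. Klrd1 stood at 329 CPM (CD94-KO) and 669 CPM (WT) in NK cells, where CPM is UMIs per 1000000 UMIs of the same gated class. A 3′ tag outside a deleted stretch does not check the label. Values are from 3′ tags, which do not grow with transcript length, so levels of different genes are set side by side per captured molecule. Ranges in square brackets are 95% intervals that cover counting error only.

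Most members were readily detected. Over all kept cells of both libraries the median member stood at 213 CPM, 62 of 81 members exceeded 100 CPM and 5 were under 10 CPM. The medians by complex were 147 CPM for complex I, 69.7 CPM for complex II, 245 CPM for complex III, 439 CPM for complex IV and 333 CPM for complex V. Complex I was led by the accessory subunits Ndufa2 at 366 CPM and Ndufa13 at 354 CPM, while the catalytic core subunits Ndufv1, which binds NADH, and Ndufs1, which carries iron-sulfur clusters, stood at 57.3 and 24.2 CPM. Complex III was led by Uqcrh, the hinge protein, at 567 CPM and Uqcrq at 419.7 CPM. Complex IV was led by Cox4i1 at 879.9 CPM and Cox8a at 872 CPM, and complex V by Atp5e, its epsilon subunit, at 861 CPM and Atp5l at 656 CPM. Complex II, which also serves the tricarboxylic acid cycle, had the lowest median. Its iron-sulfur subunit Sdhb stood at 116 CPM, the membrane anchors Sdhd and Sdhc at 74.4 and 63.98 CPM, and the flavoprotein Sdha at 65.1 CPM. Of the 81 members, 9 have an annotated pseudogene named after them (Cox5b, Cox7c, Uqcrh, Ndufs5, Ndufab1, Ndufa12, Atp5c1, Atp5k and Atp5l). Reads shared with such copies could be lost from or added to their counts. Pseudogenes under other names were not searched.

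Summed over the members, transcripts of the nuclear-encoded chain took close to the same share of UMIs in both genotypes and in most leukocytes. Over all kept cells the sum was 20515 CPM (CD94-KO) and 20787 CPM (WT), a ratio of 0.987 [0.984 to 0.990]. The sum was 21087 CPM [20984 to 21189.9] (CD94-KO) and 20703 CPM [20562 to 20845] (WT) in macrophages (626 and 292 cells), a ratio of 1.02 [1.01 to 1.03]. Monocytes had 20314 CPM [20216 to 20412] (CD94-KO) and 19776 CPM [19632 to 19920.4] (WT) (850 and 407 cells), a ratio of 1.03 [1.02 to 1.04]. NK cells had 21813 CPM [21661 to 21965] (CD94-KO) and 22137 CPM [21971 to 22304] (WT) (454 and 336 cells), a ratio of 0.985 [0.975 to 0.996]. These 3 classes are the ones with at least 100 cells in each library. On totals of all UMIs their ratios stayed within a few percent of 1, with intervals above 1 in both myeloid classes and below 1 in NK cells. With totals that leave out mitochondrial, ribosomal protein and nuclear transcripts, the order turned in macrophages, at 27075 CPM (CD94-KO) and 27156 CPM (WT). In NK cells those totals put the CD94-KO sum further below WT, as did the TMM scaling explained below. Both are given in the closing section.

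Plasmacytoid dendritic cells (pDC) had 23697 CPM (CD94-KO) and 23100 CPM (WT), a CD94-KO to WT ratio of 1.03 [0.997 to 1.06], and type 2 conventional dendritic cells (cDC2) 22258 CPM (CD94-KO) and 23548 CPM (WT), a CD94-KO to WT ratio of 0.945 [0.923 to 0.968]. Mature regulatory dendritic cells (mregDC), which express Ccr7, had the lowest sum among the dendritic classes with at least 20 cells in each library, 18877 CPM (CD94-KO) and 19527 CPM (WT), a CD94-KO to WT ratio of 0.967 [0.950 to 0.984]. CD8 T cells had 23711 CPM (CD94-KO) and 23766 CPM (WT), a CD94-KO to WT ratio of 0.998 [0.965 to 1.03] and gamma-delta T cells with Il17a or Cd163l1 UMIs (gd T) 19272 CPM (CD94-KO) and 19970.1 CPM (WT), a CD94-KO to WT ratio of 0.965 [0.937 to 0.994]. CD4 T cells had 19699.9 CPM (CD94-KO) and 22082 CPM (WT), a CD94-KO to WT ratio of 0.892 [0.862 to 0.923], the lowest ratio among the 11 classes with at least 20 cells in each library, and regulatory T cells (Treg) 20976 CPM (CD94-KO) and 22756 CPM (WT), a CD94-KO to WT ratio of 0.922 [0.886 to 0.959]. The Treg gate held 29 CD94-KO and 55 WT cells. In it Il17a stood at 61.3 CPM (CD94-KO) and 174 CPM (WT), and Cd163l1 at 135 CPM (CD94-KO) and 12.6 CPM (WT). The part of these transcripts in the Treg values was not tested. Neutrophils stood apart with 8604 CPM (CD94-KO) and 11822 CPM (WT), from 41 and 7 cells. The gate for non-immune cells, which asked for at least 10 UMIs of collagen genes and Sparc and no UMI of Ptprc, the gene of CD45, gave 21149 CPM (CD94-KO) and 21287 CPM (WT), a CD94-KO to WT ratio of 0.994 [0.978 to 1.01].

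Gene by gene, CD94-KO and WT macrophages and monocytes differed little in these subunits. On the log2(CPM + 5) scale the median difference, CD94-KO minus WT, was 0.017 over 79 members with at least 20 UMIs in macrophages, beside -0.0019 over all 9872 such genes. No member of 79 was at least 1.5-fold higher or lower, where 5.38% of genes were at least 1.5-fold higher and 5.64% at least 1.5-fold lower. The set of all genes reached down to 20 UMIs, whereas the median member stood at 213 CPM over all kept cells. Low counts scatter more, and members and all genes were not matched for level, here or in the classes below. In monocytes the median was 0.032 over 79 members and 0.00022 over all 9758 genes, and 0 of 79 members passed 1.5-fold in either direction, beside 5.63% higher and 7.39% lower among all genes. With the reduced totals the medians were -0.013 in macrophages and -0.0014 in monocytes, so their sign depended on the scaling.

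Split by complex and on totals of all UMIs, complex IV, the cytochrome c oxidase, was slightly higher in CD94-KO in both myeloid classes. Sums by complex are not given here with the reduced totals, which changed the sign of the median over members in both classes. Its summed level was 6853 CPM (CD94-KO) and 6541 CPM (WT) in macrophages, a ratio of 1.05 [1.03 to 1.06], and 12 of 15 measured members were higher in CD94-KO. In monocytes it was 6661 CPM (CD94-KO) and 6337 CPM (WT), a ratio of 1.05 [1.04 to 1.07], again with 12 of 15 higher in CD94-KO. Complex I stood at 5646 CPM (CD94-KO) and 5652 CPM (WT) in macrophages, a ratio of 0.999 [0.983 to 1.02], and complexes II, III and V had ratios of 1.02, 1.002 and 1.01. In monocytes complexes I, II, III and V had ratios of 1.02, 1.07, 1.01 and 1.02, each with an interval that included 1. The 2 myeloid classes come from the same libraries, so they do not count as separate replicates of this difference.

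The members of macrophages with the largest differences either way, among those with at least 100 UMIs there, differed by less than 1.5-fold. Uqcrc2 stood at 65.2 CPM (CD94-KO) and 85.2 CPM (WT) in macrophages, a ratio of 0.765 [0.665 to 0.881]; it is a core protein of complex III. Ndufv2 stood at 80.6 CPM (CD94-KO) and 98.3 CPM (WT) in macrophages, a ratio of 0.820 [0.722 to 0.934]; it carries an iron-sulfur cluster of complex I. Ndufab1, the mitochondrial acyl carrier protein, had a ratio of 0.869 and Ndufa5 of 0.871. In the other direction, Ndufv3 stood at 217 CPM (CD94-KO) and 193 CPM (WT) in macrophages, a ratio of 1.13 [1.03 to 1.23], and Ndufb10 stood at 147 CPM (CD94-KO) and 131 CPM (WT) in macrophages, a ratio of 1.12 [1.01 to 1.249]. Atp5sl, with 10.1 CPM (CD94-KO) and 6.79 CPM (WT), and Cox7a1, with 12.4 CPM (CD94-KO) and 10.6 CPM (WT), completed the list, and their intervals of 0.947 to 2.40 and 0.811 to 1.74 included 1.

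In NK cells the subunits stood slightly lower in CD94-KO relative to other genes. The median difference was -0.029 over 77 members, while that over all 9382 genes was 0.093, and TMM scaling, which centres the bulk of genes, shifts both by -0.11. At 1.5-fold, 1 of 77 members was higher, Cox7a1, from 15 UMIs in CD94-KO and 5 in WT, and 0 were lower, beside 10.9% higher and 3.36% lower among all genes. Complex I stood at 5670.0 CPM (CD94-KO) and 5826 CPM (WT), a ratio of 0.973 [0.954 to 0.993], complex V at 6582 CPM (CD94-KO) and 6821 CPM (WT), a ratio of 0.965 [0.947 to 0.983], and complex IV at 7141 CPM (CD94-KO) and 7052 CPM (WT), a ratio of 1.01 [0.995 to 1.03]. Transcripts of cytosolic ribosomal protein genes took 29.9% of UMIs in CD94-KO and 33.6% in WT NK cells, and nuclear or rRNA-linked transcripts (Malat1, Neat1, Xist, Gm42418 and AY036118) 4.82% in CD94-KO and 4.01% in WT. Their part in the difference was not tested.

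Among single members of NK cells, Atp5c1 stood at 269 CPM (CD94-KO) and 324 CPM (WT) in NK cells, a ratio of 0.829 [0.758 to 0.906]; it is the gamma subunit of the central rotor of complex V. Ndufa9 stood at 57.1 CPM (CD94-KO) and 72.2 CPM (WT) in NK cells, a ratio of 0.791 [0.651 to 0.960]. Ndufb5 and Ndufa5 had ratios of 0.844 and 0.851. On the higher side in CD94-KO NK cells, with at least 100 UMIs, were Ndufs4, with 122 CPM (CD94-KO) and 102 CPM (WT), Ndufs1, with 28.6 CPM (CD94-KO) and 24.1 CPM (WT), the Rieske protein Uqcrfs1, with 134 CPM (CD94-KO) and 115 CPM (WT), and Ndufa6, with 251 CPM (CD94-KO) and 225 CPM (WT). Their ratios ran from 1.12 (Ndufa6) to 1.19 (Ndufs4).

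**Figure D1:**
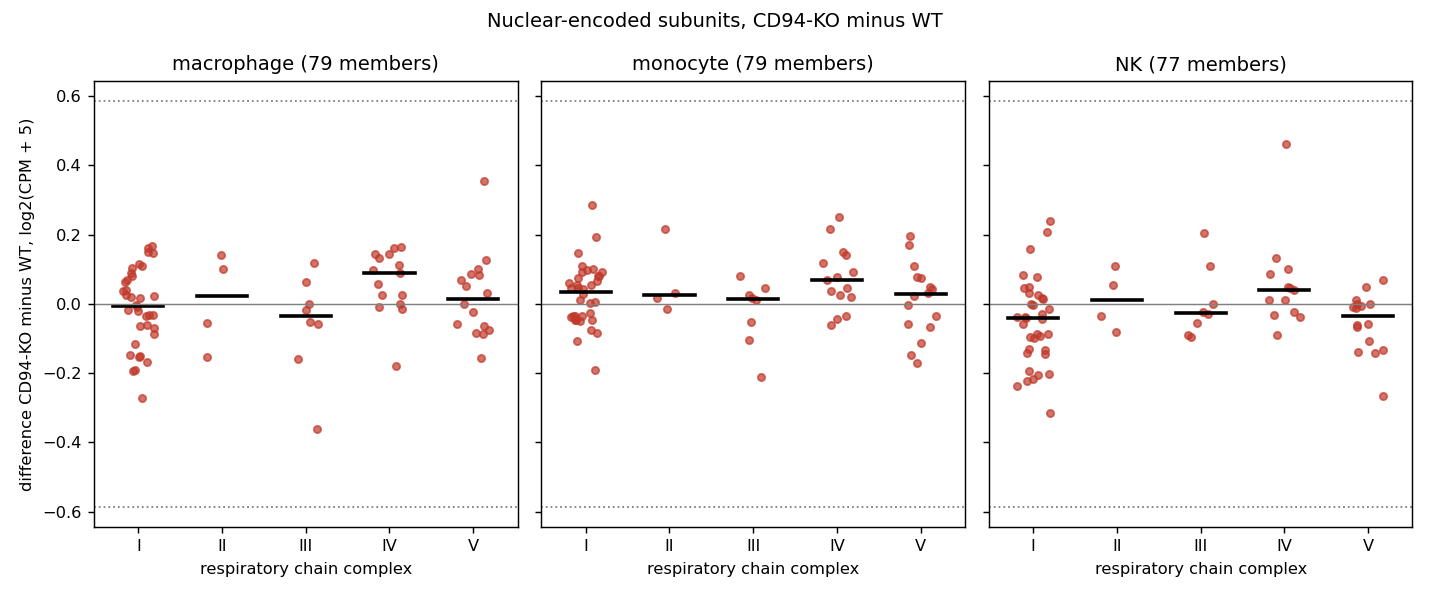
CD94-KO minus WT on the log2(CPM + 5) scale for each member by complex in macrophages, monocytes and NK cells; each point is 1 gene, measured in 1 library per genotype, with no test. Points lie close to 0 in all 3 classes, and most complex IV members lie above 0 in macrophages and monocytes.

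CD4 T cells, with few cells, had a share of lower members near that of all genes, but no higher member at the same limit. There, 0 of 74 members were at least 1.5-fold higher and 14 of 74 (18.9%) at least 1.5-fold lower in CD94-KO, beside 16.4% and 13.8% of 4182 genes. The class rests on 43 CD94-KO and 64 WT cells, with nuclear or rRNA-linked transcripts at 6.28% of CD94-KO and 4.49% of WT UMIs. Ccr7 stood at 181 CPM (CD94-KO) and 317 CPM (WT) and Fscn1, a gene of mregDC, at 0 CPM (CD94-KO) and 81.9 CPM (WT) in this gate. The part of these transcripts in the difference was not tested. Across the 11 classes in which all could be set side by side, Atp5a1, the alpha subunit of complex V, and Atp5k had lower CPM in CD94-KO in 11 of 11, with ratios from 0.777 to 0.9993 and from 0.762 to 0.9996. These 2 were picked from 81 by that count, and the classes share the 2 libraries.

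The partner subunits encoded in mitochondrial DNA stood lower in the CD94-KO library. The 13 mitochondrially encoded transcripts summed to 15049 CPM (CD94-KO) and 19873 CPM (WT), a CD94-KO to WT ratio of 0.757 [0.750 to 0.764] in macrophages, 13349 CPM (CD94-KO) and 18312 CPM (WT), a CD94-KO to WT ratio of 0.729 [0.722 to 0.736] in monocytes and 15839 CPM (CD94-KO) and 18700.1 CPM (WT), a CD94-KO to WT ratio of 0.847 [0.837 to 0.857] in NK cells. The sum was lower in CD94-KO than in WT in all 11 classes with at least 20 cells per library, which share the 2 libraries, and the nuclear-encoded sum had ratios of 1.02, 1.03 and 0.985 in the same 3 classes. In mregDC it was 10944 CPM (CD94-KO) and 16287 CPM (WT), a CD94-KO to WT ratio of 0.672 [0.658 to 0.686] and in CD8 T cells 20599 CPM (CD94-KO) and 22031 CPM (WT), a CD94-KO to WT ratio of 0.935 [0.903 to 0.968]. Kept barcodes had to have under 10% of UMIs from mitochondrial DNA, a limit that acts on this sum directly. Under limits of 5% and of none, and under the other scalings and filters tried, the ratio ran from 0.729 to 0.815 in macrophages, from 0.712 to 0.779 in monocytes and from 0.784 to 0.886 in NK cells.

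Neighbouring gene lists of mitochondrial function were examined the same way. Summed CD94-KO to WT ratios in macrophages, monocytes and NK cells were 0.973, 0.974 and 0.978 for the assembly factors of the complexes, 0.889, 0.901 and 0.958 for 14 tricarboxylic acid cycle enzymes, 0.937, 0.967 and 0.963 for mitochondrial ribosomal proteins and 1.02, 1.02 and 1.11 for the regulators of mitochondrial biogenesis such as Tfam, Esrra, Nrf1 and Gabpa. The median differences in log2(CPM + 5) were -0.036, -0.031 and -0.10 for assembly factors, -0.16, -0.12 and -0.10 for the cycle enzymes, -0.14, -0.05 and -0.059 for mitochondrial ribosomal proteins and -0.13, -0.019 and 0.087 for the regulators, in the same order of classes. In macrophages 13 of 14 cycle enzymes and 57 of 76 mitochondrial ribosomal protein genes had lower CPM in CD94-KO, beside 38 of 79 nuclear-encoded subunits and 4982 of all 9872 genes. No cycle enzyme was at least 1.5-fold higher and 1 of 14, Idh3a, was at least 1.5-fold lower, beside the 5.64% of all genes given above.

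Between cell types, single subunits spanned a wide range. Sums of UMIs per gated class and library were compared with edgeR's quasi-likelihood test, the library being a term of the model. The spread is thus how class sums vary between the 2 libraries once the difference common to all classes is taken out. All classes of a fit share this estimate, and the libraries also differ in genotype. A member was called at a Benjamini-Hochberg adjusted p under 0.05 over all genes of the comparison. Among the 74 members with at least 1000 UMIs over the 11 classes, the median ratio of the highest to the lowest class was 1.97 in the CD94-KO and 1.86 in the WT library. Cox7c had the smallest ratio in both, 1.28 in CD94-KO and 1.31 in WT, and that of Cox4i1 was 1.40 in CD94-KO and 1.34 in WT. Ndufa4 spanned 152 CPM in mregDC to 475 CPM in pDC in the CD94-KO library and 148 CPM in mregDC to 493 CPM in Treg in the WT library. In the CD94-KO library the 74 members were most often lowest in mregDC (15), CD4 T cells (15), Treg (14) and gd T cells (11), and most often highest in pDC (19), the non-immune gate (18) and CD8 T cells (16). In the WT library they were most often lowest in gd T cells (16), mregDC (15), the non-immune gate (13) and monocytes (12), and most often highest in the non-immune gate (20), Treg (13), cDC2 (12) and pDC (11).

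**Figure D2:**
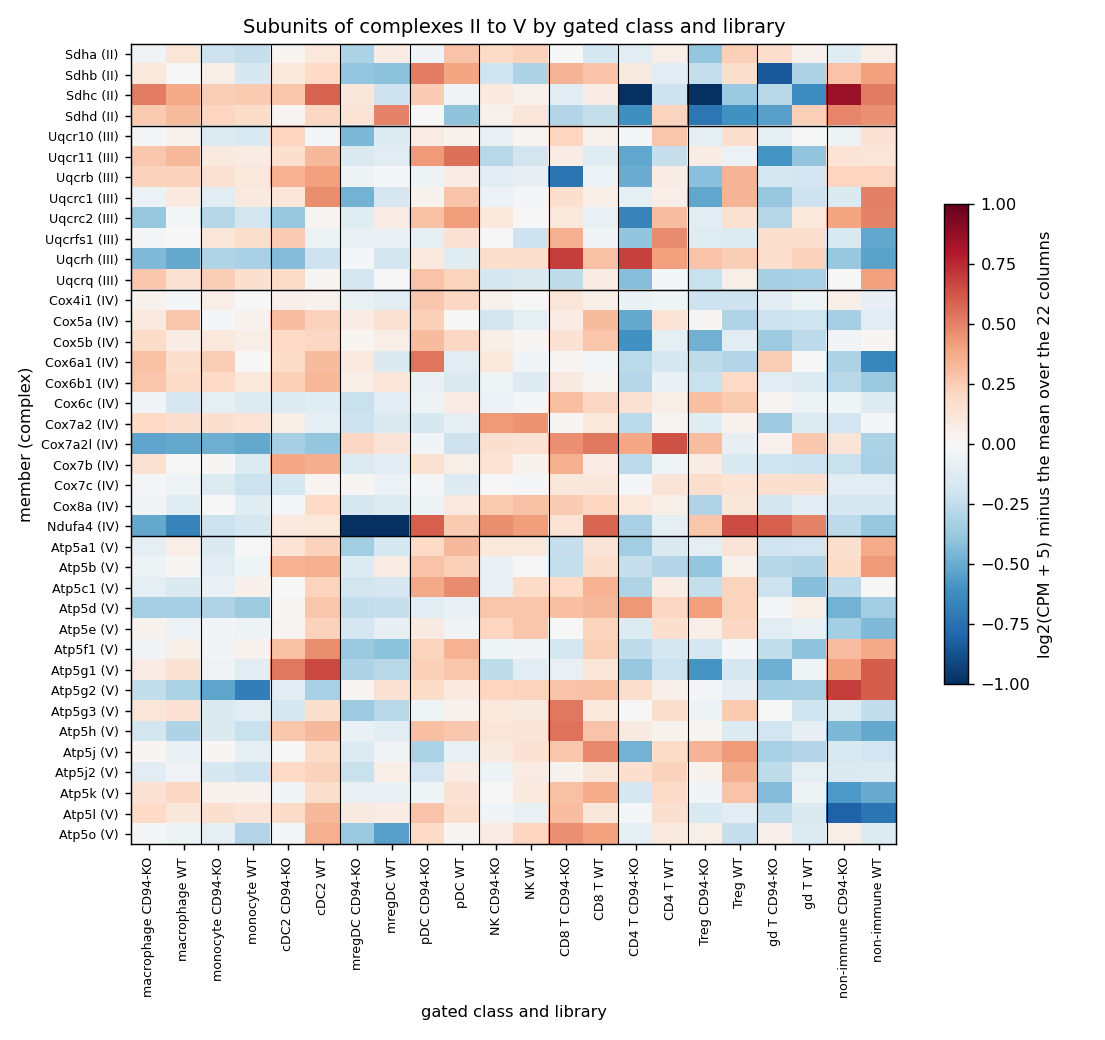
Level of the subunits of complexes II to V with at least 1000 UMIs (rows, grouped by complex) in each gated class and library (columns, CD94-KO before WT), as log2(CPM + 5) minus the row's mean over columns; the colour scale is in log2 units and ends at 1 and -1. Among the classes with at least 20 cells in each library, Ndufa4 is lowest in mregDC and Cox7a2l in macrophages and monocytes in both libraries. The CD4 T and Treg columns, from few cells, differ more between the libraries in rows such as Sdhc.

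Within NK cells many subunits differed in the same direction between granzyme-defined groups. NK cells with at least 3 UMIs of Gzmc, a granzyme of activated NK cells, were set against NK cells with Gzma UMIs and no Gzmc UMI. The summed level was 23340.4 CPM [23077 to 23606] (CD94-KO) and 23406 CPM [23154 to 23659.9] (WT) in Gzmc NK cells, against 20762 CPM [20548 to 20977] (CD94-KO) and 20678 CPM [20403 to 20956] (WT) in Gzma NK cells. Both libraries were higher in the Gzmc group. Of 78 members tested, 26 were higher and 0 lower, beside 9.32% higher and 13.6% lower of 8850 genes, and 73 of 78 had a positive fold change. The median was 0.33 over members and -0.13 over all genes.

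The calls came from every complex except complex II: 11 of 36 in complex I, 4 of 8 in complex III, 3 of 14 in complex IV and 8 of 16 in complex V, with 0 of 4 in complex II. Ndufa10 had 99.7 CPM (CD94-KO) and 116 CPM (WT) in Gzmc NK cells, against 65.99 CPM (CD94-KO) and 57.4 CPM (WT) in Gzma NK cells (log2 fold change 0.93, SE 0.18, adjusted p = 0.000946). Ndufab1 had 133 CPM (CD94-KO) and 150.4 CPM (WT) in Gzmc NK cells, against 90.7 CPM (CD94-KO) and 79.4 CPM (WT) in Gzma NK cells (log2 fold change 0.85, SE 0.16, adjusted p = 0.000837). Ndufc1 had 175 CPM (CD94-KO) and 167 CPM (WT) in Gzmc NK cells, against 113 CPM (CD94-KO) and 104 CPM (WT) in Gzma NK cells (log2 fold change 0.78, SE 0.15, adjusted p = 0.00116). All 3 are complex I subunits, and in each both Gzmc sums lay above both Gzma sums. As they were picked by their fold change on these same sums, this adds no separate support. In complex V, Atp5g2, 1 of 3 genes for the same c-ring protein, followed with a log2 fold change of 0.60 (SE 0.14, adjusted p = 0.00352), and in complex III, Uqcr11 with 0.67 (SE 0.14, adjusted p = 0.00179). Without TMM scaling 16 were called, with DESeq2 18, none of them lower, and 15 of the 26 were called in all 10 alternative fits. Gzmc NK cells were deeper, with median UMIs of 13722 (CD94-KO) and 12934 (WT) against 5422.5 (CD94-KO) and 5866.5 (WT) in Gzma NK cells, and ribosomal protein genes took 34.9% (CD94-KO) and 37.7% (WT) against 27.05% (CD94-KO) and 29.1% (WT). The part of depth in the calls was not tested.

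Promoters of nuclear respiratory genes are known to bind NRF1, ETS factors such as GABP, and YY1, so the promoter windows were read for their motifs. RefSeq promoters (GRCm38.p6, 250 bases before to 50 after a gene's start) were found for 68 of 81 members and for 27025 genes in all. A set of 4 motifs was searched on both strands: GCGCANGCG for NRF1, CCGGAAG for ETS, AAGATGG for YY1 and CAAGGTCA for the oestrogen-related receptors. NRF1 motifs were in 20 members (29.4%) and 7.03% of all genes, ETS motifs in 16 (23.5%) and 9.93%, YY1 motifs in 12 (17.6%) and 7.28%, and the receptors' motif in 4 (5.88%) and 1.76%. Member promoters had a median GC content of 58.8% and all promoters 53.3%, and the NRF1 letters are rich in G and C. Of the 26 members higher in Gzmc NK cells, 22 had a promoter entry, of which 6 held an NRF1, 2 an ETS, 6 a YY1 and 1 a receptor match. Of the 26 members lower in mregDC than in cDC2, 25 had an entry, of which 5 held an NRF1, 4 an ETS, 3 a YY1 and 0 a receptor match. All 11 members lower in gd T than in CD8 T cells had an entry, of which 5 held an NRF1, 5 an ETS, 1 a YY1 and 1 a receptor match. No test was made of these counts, and the 6 of 22 NRF1 matches stand beside 20 of 68 among all members. These matches describe letters in a window, not binding.

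To show the letters behind the NRF1 count, 1 match is printed for each of the 6 members higher in Gzmc NK cells that held one; each is the 30-base window around the match nearest the start, 5′ to 3′ on the gene's strand, with the motif or its reverse complement in capitals: Ndufb4 at chr16:37654371-37654400 (minus strand), Ndufs5 at chr4:123718265-123718294 (minus strand), Uqcr11 at chr10:80406807-80406836 (minus strand), Atp5c1 at chr2:10080430-10080459 (minus strand), Atp5g2 at chr15:102671070-102671099 (minus strand) and Atp5o at chr16:91931601-91931630 (minus strand).
Ndufb4: cctcatatccGCGCAGGCGcagatgtgcgc
Ndufs5: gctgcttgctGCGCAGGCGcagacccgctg
Uqcr11: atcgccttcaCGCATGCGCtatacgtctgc
Atp5c1: ctgagctcccGCGCACGCGcactgagtccc
Atp5g2: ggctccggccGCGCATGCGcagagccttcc
Atp5o: ctggcgcgcgCGCGTGCGCtctggcgccag
Ndufb4 held 3 matches in its window, and Atp5g2 held overlapping matches on both strands, shifted by 1 base, of which the one on the gene's strand is shown. No match of one of the 4 motifs overlapped a match of another in these 6 promoters.

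Mature regulatory dendritic cells, the migratory Ccr7-expressing state, carried lower levels of these subunits than cDC2. Of 77 members tested, 1 was higher and 26 were lower, beside 10.8% higher and 10.7% lower of 8865 genes, and the median was -0.32 over members and 0.068 over all genes. The lower calls were 13 of 36 in complex I, 1 of 4 in complex II, 2 of 8 in complex III, 3 of 13 in complex IV and 7 of 16 in complex V. Ndufa4 had 152 CPM (CD94-KO) and 148 CPM (WT) in mregDC, against 335 CPM (CD94-KO) and 337 CPM (WT) in cDC2 (log2 fold change -1.19, SE 0.18, adjusted p = 2.22e-05). Ndufa9 had 45.6 CPM (CD94-KO) and 48.4 CPM (WT) in mregDC, against 79.4 CPM (CD94-KO) and 114 CPM (WT) in cDC2 (log2 fold change -1.03, SE 0.20, adjusted p = 0.000485). Cox6b2 had 9.43 CPM (CD94-KO) and 6.31 CPM (WT) in mregDC, against 24.1 CPM (CD94-KO) and 28.1 CPM (WT) in cDC2 (log2 fold change -1.65, SE 0.50, adjusted p = 0.0213), a low gene whose protein is known from testis. In these 3 genes, picked by their fold change on the same sums, both mregDC sums lay below both cDC2 sums, which adds no separate support.

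The single member higher in mregDC was Cox7a2l, counted here with complex IV. Cox7a2l had 324 CPM (CD94-KO) and 307 CPM (WT) in mregDC, against 223 CPM (CD94-KO) and 213 CPM (WT) in cDC2 (log2 fold change 0.50, SE 0.17, adjusted p = 0.0364). Atp5g1, another gene for the c-ring protein, was lower with a log2 fold change of -0.93 (SE 0.16, adjusted p = 8.6e-05). Across the 10 alternative fits 11 of the 27 calls were made every time. The mregDC gate held 188 CD94-KO and 99 WT cells and the cDC2 gate 66 and 50, and the collagen transcript Col1a1 stood at 145 CPM (CD94-KO) and 0 CPM (WT) in mregDC. The part of this transcript's source in the calls was not tested.

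In the gated gamma-delta T cells most members stood below their level in CD8 T cells, with calls in complexes I, II, IV and V. Complex III had no call, but its median log2 fold change of -0.27 was near the -0.28 of complex II. Of 77 members, 0 were higher and 11 lower, beside 5.08% and 4.28% of 8865 genes, with a median of -0.35 over members and 0.014 over all genes, and 10 of 77 fold changes were positive. Complex V gave 6 of the 11 calls: Atp5j, Atp5g2, Atp5c1, Atp5k, Atp5h and Atp5l. Sdhb had 62.9 CPM (CD94-KO) and 93.2 CPM (WT) in gd T cells, against 149 CPM (CD94-KO) and 143 CPM (WT) in CD8 T cells (log2 fold change -1.02, SE 0.25, adjusted p = 0.00828). Ndufc2 had 93.5 CPM (CD94-KO) and 113 CPM (WT) in gd T cells, against 186 CPM (CD94-KO) and 171 CPM (WT) in CD8 T cells (log2 fold change -0.86, SE 0.21, adjusted p = 0.00799). Ndufv2 had 59.5 CPM (CD94-KO) and 73.5 CPM (WT) in gd T cells, against 103 CPM (CD94-KO) and 117 CPM (WT) in CD8 T cells (log2 fold change -0.81, SE 0.25, adjusted p = 0.0377). In all 3, picked by their fold change on the same sums, the gd T sums lay below the CD8 T sums in both libraries, which adds no separate support. DESeq2 called 13 lower, and 4 of the 11 calls (Sdhb, Ndufc2, Atp5h and Atp5j) were made in all 10 alternative fits. The CD8 T gate held 31 CD94-KO and 52 WT cells, and ribosomal protein genes took 24.8% (CD94-KO) and 28.6% (WT) of UMIs in gd T cells, against 29.6% (CD94-KO) and 33.7% (WT) in CD8 T cells. The pDC genes Siglech and Ccr9 stood at 0 and 1.70 CPM (CD94-KO) and at 2.83 and 0 CPM (WT) in gd T cells, against 121 and 103 CPM (CD94-KO) and 0 and 0 CPM (WT) in CD8 T cells. Ly6c2, which pDC, monocytes and some CD8 T cells express, stood at 52.7 CPM (CD94-KO) and 42.4 CPM (WT) in gd T cells, against 1635 CPM (CD94-KO) and 745 CPM (WT) in CD8 T cells. The part of these transcripts in the calls was not tested.

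**Figure D3:**
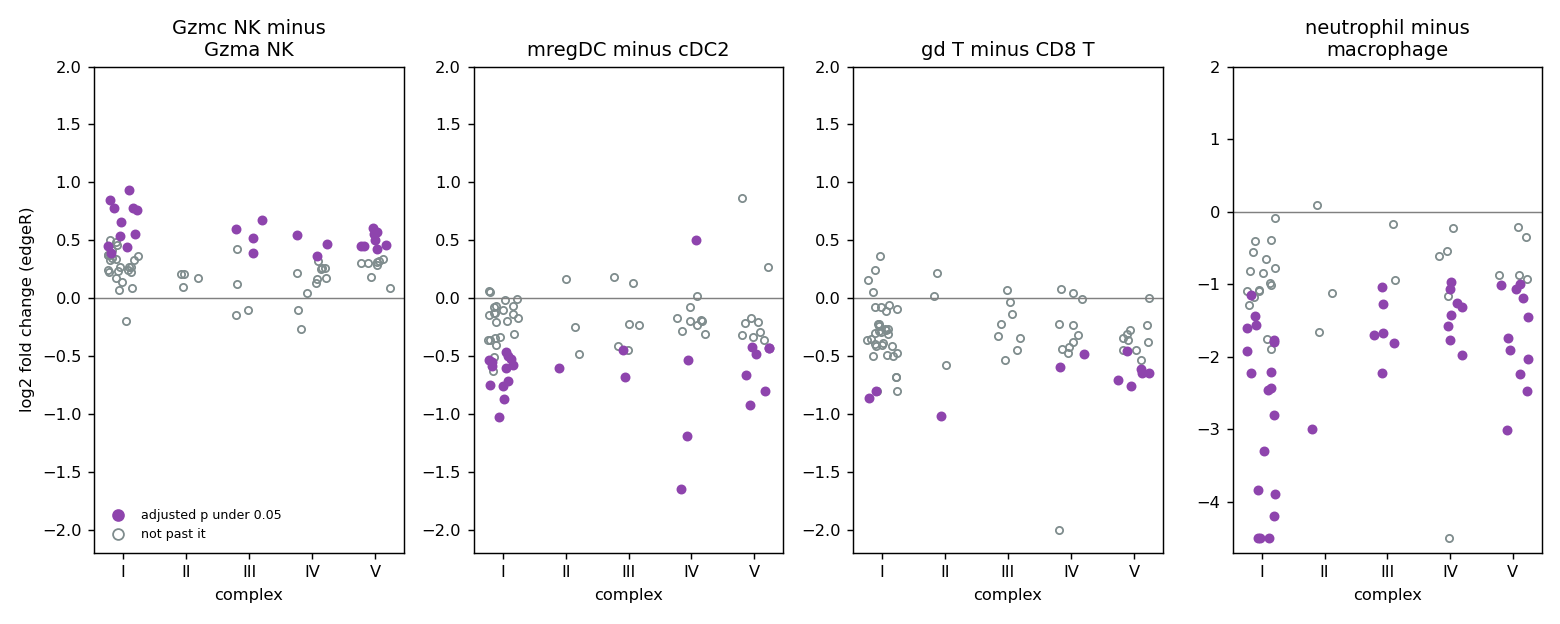
Log2 fold change of each member by complex (edgeR, class named first minus class named second) in comparisons of gated classes, with members at an adjusted p under 0.05 filled; values below a panel's lower limit are drawn at that limit. Members lie mostly above 0 in Gzmc against Gzma NK cells and mostly below 0 in mregDC against cDC2, in gd T against CD8 T cells and in neutrophils against macrophages.

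Between macrophages and NK cells members were called in both directions, less often than all genes tested, and the balance depended on the scaling. Of 77 members, 12 were higher and 9 lower in macrophages, beside 30% and 26.9% of 8865 genes, and the median was 0.065. Ribosomal protein transcripts took 16.2% (CD94-KO) and 16.7% (WT) of macrophage UMIs, against 29.9% (CD94-KO) and 33.6% (WT) in NK cells. With totals that leave these, mitochondrial and nuclear transcripts out, 1 member was higher and 36 were lower, and the median of all genes was -0.39. Some differences held under every scaling: Ndufa4 had 218 CPM (CD94-KO) and 195 CPM (WT) in macrophages, against 434 CPM (CD94-KO) and 420.0 CPM (WT) in NK cells (log2 fold change -0.99, SE 0.16, adjusted p = 7.16e-06). Ndufb11 had 164 CPM (CD94-KO) and 152 CPM (WT) in macrophages, against 305 CPM (CD94-KO) and 299.6 CPM (WT) in NK cells (log2 fold change -0.89, SE 0.15, adjusted p = 2.24e-05). Atp5sl had 10.1 CPM (CD94-KO) and 6.79 CPM (WT) in macrophages, against 22.8 CPM (CD94-KO) and 21.5 CPM (WT) in NK cells (log2 fold change -1.27, SE 0.26, adjusted p = 0.000206). Among the higher members, Ndufb8 had 253 CPM (CD94-KO) and 238 CPM (WT) in macrophages, against 158 CPM (CD94-KO) and 163 CPM (WT) in NK cells (log2 fold change 0.67, SE 0.14, adjusted p = 0.000249), and it was called in all 10 alternative fits. Ndufc1 and Uqcr11, with log2 fold changes of 0.69 (SE 0.16, adjusted p = 0.000869) and 0.60 (SE 0.13, adjusted p = 0.000511), lost their calls with the reduced totals.

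Closely related classes showed few or no calls. Between macrophages and monocytes 0 of 77 members were higher and 0 lower, beside 1.03% and 1.4% of 8865 genes, with 4 members at an unadjusted p under 0.05 by edgeR, 0 calls by DESeq2 and a median of 0.0025. Between Treg and CD4 T cells 0 were higher and 0 lower, beside 1.31% and 2.02%, with 7 members at an unadjusted p under 0.05 by edgeR and 1 higher by DESeq2. Between NK and CD8 T cells 0 were higher and 1 lower, beside 2.41% and 2.29%. That one was Ndufv3, an accessory protein of the NADH-oxidising arm of complex I: Ndufv3 had 169 CPM (CD94-KO) and 167 CPM (WT) in NK cells, against 289 CPM (CD94-KO) and 242 CPM (WT) in CD8 T cells (log2 fold change -0.62, SE 0.17, adjusted p = 0.0297). The call was lost without the filter on low genes and when smaller classes entered the fit.

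For pDC the direction depended on the scaling. Against cDC2, 0 of 77 members were higher and 18 lower in pDC with TMM, beside 10.4% and 12.4% of 8865 genes, as against 8 higher and 2 lower both without TMM and with reduced totals. The median over members was -0.32 with TMM, 0.018 without and 0.041 with reduced totals. The median over all genes was 0.34 without TMM and 0.017 with it. The 2 members called lower in all 10 alternative fits were Cox6b2 and Cox6b1, 2 isoforms of the same complex IV subunit. Cox6b1 had 502 CPM (CD94-KO) and 478 CPM (WT) in pDC, against 627 CPM (CD94-KO) and 669.6 CPM (WT) in cDC2 (log2 fold change -0.74, SE 0.15, adjusted p = 0.000582). Cox6b2 had 0 CPM (CD94-KO) and 6.74 CPM (WT) in pDC, against 24.1 CPM (CD94-KO) and 28.1 CPM (WT) in cDC2 (adjusted p = 0.00428). Ndufb7 had a log2 fold change of -0.72 (SE 0.19, adjusted p = 0.00737) and was not called without TMM.

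The non-immune gate, collagen- and Sparc-rich cells without Ptprc and with median UMIs of 40034 (CD94-KO) and 48427.5 (WT), differed from macrophages in both directions. Of 77 members 16 were higher and 24 lower, beside 33.9% and 34.1% of 8865 genes. The counts were 25 and 16 without TMM, 35 and 7 with reduced totals and 7 and 40 without the filter, so the balance of higher and lower members depended on the scaling and the filter. The higher calls were 14 of 36 in complex I, 1 of 8 in complex III and 1 of 16 in complex V, and the lower calls included 8 of 13 in complex IV. Ndufb9 had 415 CPM (CD94-KO) and 411 CPM (WT) in the non-immune gate, against 202 CPM (CD94-KO) and 205 CPM (WT) in macrophages (log2 fold change 0.82, SE 0.14, adjusted p = 1.83e-05), and it was called in all 10 alternative fits. Ndufv1, which binds NADH, had a log2 fold change of 0.77 (SE 0.16, adjusted p = 0.000127) and was also called in all 10. Ndufa3 had 106 CPM (CD94-KO) and 102 CPM (WT) in the non-immune gate, against 229.6 CPM (CD94-KO) and 235 CPM (WT) in macrophages (log2 fold change -1.35, SE 0.17, adjusted p = 9.11e-08). Atp5l had 371 CPM (CD94-KO) and 393 CPM (WT) in the non-immune gate, against 751 CPM (CD94-KO) and 709 CPM (WT) in macrophages (log2 fold change -1.13, SE 0.13, adjusted p = 2.88e-08). Cox6b2 had 0 UMIs in both non-immune sums and 4.97 CPM (CD94-KO) and 5.03 CPM (WT) in macrophages. The non-immune gate held 23 CD94-KO and 58 WT cells. In it Col1a1 stood at 108 CPM (CD94-KO) and 15.8 CPM (WT), Col3a1 at 1841 CPM (CD94-KO) and 757 CPM (WT) and Sparc at 1807 CPM (CD94-KO) and 1066 CPM (WT). The part of this unlike make-up in the calls was not tested.

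A further fit, added after the cells had been counted, admitted classes with at least 5 cells per library. Neutrophils, which are known to rely on glycolysis, were lower than macrophages: of 77 members 0 were higher and 45 lower, beside 5.4% and 8.9% of 8301 genes, with a median of -1.32 over members and -0.94 over all genes. The lower calls were 19 of 36 in complex I, 1 of 4 in complex II, 6 of 8 in complex III, 8 of 13 in complex IV and 11 of 16 in complex V. Ndufa11, Ndufab1 and Ndufa9 had 0 UMIs in both neutrophil sums, where 3 UMIs would be 24.2 CPM (CD94-KO) and 176 CPM (WT), against 152 CPM (CD94-KO) and 147 CPM (WT) of Ndufa11 in macrophages. The 41 CD94-KO and 7 WT neutrophils had medians of 2916 and 2772 UMIs. Between cDC1 and cDC2, 0 members were higher and 0 lower, beside 1.73% and 2.22%, with 4 at an unadjusted p under 0.05 by edgeR and no other tool run. Between Nos2-positive and Arg1-positive macrophages 0 of 78 were higher and 1 lower, beside 1.57% and 0.733% of 8734 genes, from 31 CD94-KO and 5 WT Nos2-positive cells. This was Ndufa12: Ndufa12 had 55.9 CPM (CD94-KO) and 73.8 CPM (WT) in Nos2-positive, against 128 CPM (CD94-KO) and 121 CPM (WT) in Arg1-positive macrophages (log2 fold change -1.07, SE 0.29, adjusted p = 0.0413). Its Nos2-positive values rest on 21 UMIs (CD94-KO) and 4 UMIs (WT). The members called in this further fit were not set against alternative fits.

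Genes that encode alternative forms of one subunit were not spread alike over the classes. Highest and lowest here refer to the classes with at least 20 cells in each library. The 3 genes for the c-ring protein of complex V differed in where they were highest: Atp5g1 was highest in cDC2 (418 CPM (CD94-KO) and 460.1 CPM (WT)), and Atp5g2 in the non-immune gate (736 CPM (CD94-KO) and 693 CPM (WT)) and lowest in monocytes (314 CPM (CD94-KO) and 278 CPM (WT)). Atp5g3 had 249 CPM (CD94-KO) and 253 CPM (WT) in macrophages and 245 CPM (CD94-KO) and 243 CPM (WT) in NK cells. For complex IV, Cox4i1 and Cox8a were used in every class while Cox4i2, known from lung and from low oxygen, had UMIs chiefly in macrophages (25 in CD94-KO and 13 in WT) and monocytes (30 and 9). Cox6b2 was highest in cDC2 at 24.1 CPM (CD94-KO) and 28.1 CPM (WT), where Cox6b1 stood at 627 CPM (CD94-KO) and 669.6 CPM (WT). Cox7a1, the form of muscle and heart, had 12.4 CPM (CD94-KO) and 10.6 CPM (WT) in macrophages, where Cox7a2 had 536 CPM (CD94-KO) and 526 CPM (WT). Ndufa4l2, known to be induced by low oxygen, had 27 UMIs in CD94-KO and 5 in WT over all kept cells, 10 and 0 of them in mregDC.

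**Figure D4:**
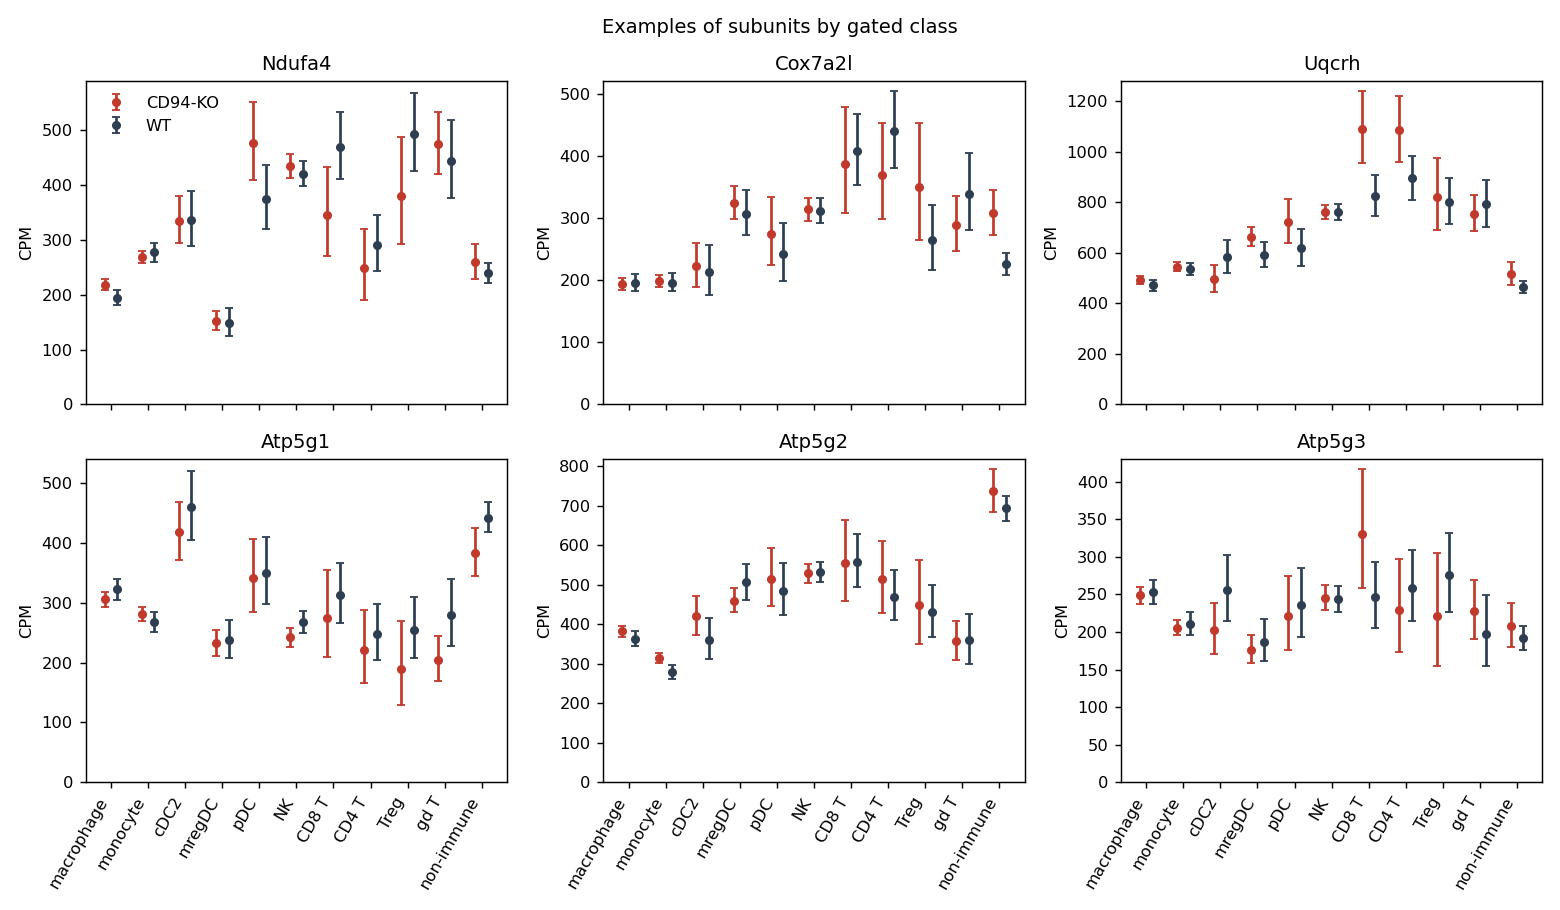
Level in CPM of Ndufa4, Cox7a2l, Uqcrh and the 3 c-ring genes Atp5g1, Atp5g2 and Atp5g3 in each gated class, CD94-KO before WT; error bars are 95% exact Poisson intervals (counting error only). Among the classes with at least 20 cells in each library, Ndufa4 is lowest in mregDC, and Atp5g1 is highest in cDC2 in both libraries.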

How the data were processed

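Unique counts (UMIs) per gene and barcode were used as deposited; per the file headers they were made with Cell Ranger 5.0.0, and per the submitters' processing notes with mm10 and Seurat 4.0. The deposited barcodes are those the authors kept as cell-associated, per the labels' protocols. Barcodes needed 500 or more UMIs, 300 or more genes and a mitochondrial share below 10%. The top 4% by Scrublet doublet score (scanpy 1.11.5) were removed, as its automatic threshold marked 0 CD94-KO and 1 WT barcodes. Cells were gated by raw UMIs of marker genes, each class needing at least 20 cells per library. The members, the lists and the gates were chosen with earlier results of these data known, and gate thresholds were set after the cells had been seen.

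Between genotypes there is 1 library each, so only levels, ratios with exact 95% intervals and differences of log2(CPM + 5) are given. Between classes, edgeR 4.0.16 (R 4.3.3) with TMM, filterByExpr, the library as a term and Benjamini-Hochberg adjustment over all genes was used at 0.05, with DESeq2 1.42.0 as an alternative; the procedure was tested on simulated data. Each class had 2 sums, 1 per library. P-values thus measure the spread left between the 2 libraries after the library term, shared over the classes of a fit. The 2 libraries differ in genotype. Named were the 2 highest members of each complex, all of complex II, isoform groups, the 4 members differing most each way in macrophages and NK cells with at least 100 UMIs, and the 3 called members with the largest log2 fold change each way per comparison; other named genes were chosen after their values were seen. Some genes that this rule would name are not reported here. Alternatives changed the scaling, filters, gates, doublet removal, cell weights, pseudocount and tool.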

Additional observations from a re-analysis of the deposited data

Results flagged for a closer look

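The summed level of the 81 subunits, CD94-KO over WT, lay on different sides of 1 in different classes, with counting intervals that did not include 1. It was 1.02 in macrophages, where reduced totals turn the order. It was 0.985 in NK cells, 0.967 in mregDC, 0.965 in gd T cells, 0.945 in cDC2, 0.922 in Treg and 0.892 in CD4 T cells. The difference between the classes was not tested, since each genotype has 1 library.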

How the results depend on the processing

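Of 767 values under alternative settings, 647 kept their direction and their side of the threshold, or moved by less than the counting interval, 0 called values reversed, 108 values moved and 12 lost a call. These values cover the sums, medians, counts and named genes, not every member. Of all members called, 9 of 21 between macrophages and NK cells, 14 of 40 between the non-immune gate and macrophages, 11 of 27 between mregDC and cDC2, 4 of 11 between gd T and CD8 T cells, 2 of 18 between pDC and cDC2 and 15 of 26 between Gzmc and Gzma NK cells were called in all 10 alternative fits. The named genes' lost calls were those of Ndufc1 and Uqcr11 between macrophages and NK cells with totals that leave out mitochondrial, ribosomal protein and nuclear transcripts (reduced totals), of Ndufv3 between NK and CD8 T cells, Ndufv2 between gd T and CD8 T cells and Cox7a2l between mregDC and cDC2 without the filter or with classes of at least 5 cells, of Ndufv2 also with stricter gates or without removal of doublets, and of Ndufb7 between pDC and cDC2 without TMM or with reduced totals. The cause was not tested.

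The median difference of the members, CD94-KO minus WT, was 0.036 in macrophages, 0.055 in monocytes, -0.14 in NK cells under TMM and -0.013 in macrophages, -0.0014 in monocytes, -0.10 in NK cells with reduced totals. The medians in macrophages and monocytes, which carry no test, thus changed sign with reduced totals. With cells weighed alike the median was 0.039 in macrophages and -0.057 in NK cells. Members at least 1.5-fold higher in macrophages numbered 1 under TMM, 2 when cells were weighed alike and 2 with no minimum of UMIs. In monocytes 1 was higher under TMM, with cells weighed alike, without the mitochondrial filter, with stricter gates and with no minimum, and 1 was lower with stricter gates. In NK cells 0 were higher with stricter gates, and 2 were higher and 1 lower with no minimum.

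The summed level under TMM was 21226 CPM in CD94-KO macrophages, 20476 CPM (CD94-KO) and 19619 CPM (WT) in monocytes and 20983 CPM (CD94-KO) and 23012 CPM (WT) in NK cells. With reduced totals it was 27075 CPM (CD94-KO) and 27156 CPM (WT) in macrophages, 25871 CPM (CD94-KO) and 25779 CPM (WT) in monocytes, 34244 CPM (CD94-KO) and 36573 CPM (WT) in NK cells. With cells weighed alike it was 20002 CPM (CD94-KO) and 19625 CPM (WT) in macrophages, 19492 CPM (CD94-KO) and 19073 CPM (WT) in monocytes, 20570.1 CPM (CD94-KO) and 21091 CPM (WT) in NK cells. With stricter gates it was 21446 CPM (CD94-KO) and 21226 CPM (WT) in macrophages, 22219.8 CPM (CD94-KO) and 22439.7 CPM (WT) in NK cells and 20461 CPM in CD94-KO monocytes, and with a mitochondrial share under 5% it was 20865 CPM in WT macrophages and 19942 CPM in WT monocytes.

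Under TMM the median difference of the mitochondrially encoded subunits was -0.36 in macrophages, -0.45 in monocytes and -0.32 in NK cells, and in NK cells it was -0.21 for assembly factors, -0.21 for tricarboxylic acid cycle enzymes and -0.17 for mitochondrial ribosomal proteins.

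Members called numbered 1 between macrophages and monocytes with stricter gates, 37 between macrophages and NK cells with reduced totals and 12 with classes of at least 5 cells, 0 between NK and CD8 T cells without the filter and 0 with classes of at least 5 cells, and 1 between Treg and CD4 T cells without TMM and 1 by DESeq2. They numbered 7 between gd T and CD8 T cells and 17 between mregDC and cDC2 without the filter, and 4 and 11 with classes of at least 5 cells. Between pDC and cDC2 they numbered 10 without TMM, 10 with reduced totals and 6 with classes of at least 5 cells, and between Gzmc and Gzma NK cells 16 without TMM and 16 with sub-gates of at least 5 cells. Stricter gates left Treg against CD4 T cells without a value, since fewer than 20 cells passed.

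With either library left out, which leaves 1 sum per class, no TMM and no test, the median log2 fold change of the members ranged from 0.056 to 0.09 for macrophages minus monocytes, from -0.0071 to 0.019 for macrophages minus NK cells, from -0.12 to -0.07 for NK minus CD8 T cells, from 0.046 to 0.13 for Treg minus CD4 T cells, from -0.31 to -0.26 for gd T minus CD8 T cells, from -0.30 to -0.27 for mregDC minus cDC2, from 0.0031 to 0.13 for pDC minus cDC2, from -0.016 to 0.032 for the non-immune gate minus macrophages, from -1.42 to -1.36 for neutrophils minus macrophages, from 0.09 to 0.14 for cDC1 minus cDC2, from 0.19 to 0.20 for Gzmc minus Gzma NK cells, from -0.14 to -0.11 for Nos2 minus Arg1 macrophages; for pDC this is the sign found without TMM, not the one with it. Treg minus CD4 T cells likewise had a negative median with TMM and a positive one here. With TMM the median was -0.19 for the non-immune gate minus macrophages and 0.065 for macrophages minus NK cells. For both, the range given here held both signs. Comparisons between classes hold the library as a term, which pairs the sums of a library. Between CD94-KO and WT the case differs. No paired analysis was possible because each genotype has 1 library, so the groups share a single replicate number.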
